A study of Homo sapiens with 5 samples.

Results

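The genes described here are 45 listed genes of glycolysis and of the cellular response to low oxygen, of which the 26 with a named probe set on the array were measured, out of 14812 named genes in all. They comprise 9 measured of 17 listed glycolytic enzymes and 17 measured of 28 other genes known to be induced by hypoxia or to act in oxygen sensing, glycogen metabolism and related steps. Below, the second set is called hypoxia-induced genes as a name only, since not every gene in it is known for such induction. Each measured gene had 1 probe set, and no gene was filtered out. The glycolytic genes PFKL, PFKM, PFKP, ALDOA, ALDOC, ENO1, ENO2 and PKM were not analysed here for want of a named probe set, nor were SLC2A1, SLC2A3, PFKFB3, PFKFB4, PDK1, PDK3, GBE1, HIF1A, CA9, P4HA1 and P4HA2. RNA came from 5 clones of the human esophageal carcinoma line TE7, each grown from a single cell and hybridised to 1 Affymetrix Gene 2.0 ST array. The groups were 3 clones transduced with pMIRNA1-puro-CDH26, which carries the cadherin gene CDH26, and 2 clones transduced with pMIRNA1-puro-control. After reaching confluency all 5 were kept in RPMI medium with 1.8 mM calcium for 24 h. Each sample was a separate clone, so differences between clones of 1 construct are part of the spread within a group. The labels do not say what drives CDH26 in the construct, and no clone was said to have been exposed to low oxygen.

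Glycolysis splits glucose into pyruvate, and lactate dehydrogenase turns pyruvate into lactate when it is not burned in the mitochondria. When oxygen is short, prolyl hydroxylases of the EGLN family no longer mark the alpha subunits of the hypoxia-inducible factors (HIF), encoded by HIF1A and EPAS1, for destruction. The stabilised subunits pair with ARNT and bind short DNA elements near genes of glucose uptake, glycolysis, blood vessel growth, mitophagy and collagen modification. In carcinoma cells many of these genes are also active in ordinary oxygen.

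The 250 bases before the RefSeq gene start of 6 genes are shown because these genes had the largest differences without overlap between the groups among the genes whose promoter was used here (GRCh38.p14, coding strand, 5′ to 3′). No promoter was used for NDRG1, VEGFA and BNIP3L. Of these, NDRG1 (difference 1.11) and VEGFA (0.41) also lay apart between the groups, with larger differences than KDM3A and ERO1A. The windows are chr14:33951075-33951324 (minus strand) for EGLN3, chr2:74833877-74834126 (plus) for HK2, chr10:72273674-72273923 (plus) for DDIT4, chr1:63593161-63593410 (plus) for PGM1, chr2:86441121-86441370 (plus) for KDM3A and chr14:52695559-52695808 (minus) for ERO1A. Capitals mark the core of the hypoxia response element, ACGTG or GCGTG, on either strand, so that a match on the opposite strand reads CACGT or CACGC.
EGLN3: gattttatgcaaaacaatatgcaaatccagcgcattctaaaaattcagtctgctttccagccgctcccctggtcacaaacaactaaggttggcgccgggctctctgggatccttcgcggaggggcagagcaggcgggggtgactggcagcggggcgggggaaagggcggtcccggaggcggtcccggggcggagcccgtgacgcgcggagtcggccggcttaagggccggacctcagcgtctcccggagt
HK2: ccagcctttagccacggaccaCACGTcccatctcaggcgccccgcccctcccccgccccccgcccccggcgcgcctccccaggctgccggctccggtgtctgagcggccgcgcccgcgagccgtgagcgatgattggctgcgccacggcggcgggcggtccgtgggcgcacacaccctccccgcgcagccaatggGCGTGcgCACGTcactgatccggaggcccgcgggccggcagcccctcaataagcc
DDIT4: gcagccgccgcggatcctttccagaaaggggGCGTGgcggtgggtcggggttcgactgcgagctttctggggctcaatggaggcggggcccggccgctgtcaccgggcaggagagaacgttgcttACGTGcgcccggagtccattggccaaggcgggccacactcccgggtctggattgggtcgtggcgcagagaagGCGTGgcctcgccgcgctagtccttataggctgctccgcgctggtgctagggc
PGM1: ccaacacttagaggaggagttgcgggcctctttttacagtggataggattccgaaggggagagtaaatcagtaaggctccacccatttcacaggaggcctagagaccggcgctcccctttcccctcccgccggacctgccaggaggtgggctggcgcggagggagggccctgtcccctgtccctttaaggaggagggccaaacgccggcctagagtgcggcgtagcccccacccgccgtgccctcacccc
KDM3A: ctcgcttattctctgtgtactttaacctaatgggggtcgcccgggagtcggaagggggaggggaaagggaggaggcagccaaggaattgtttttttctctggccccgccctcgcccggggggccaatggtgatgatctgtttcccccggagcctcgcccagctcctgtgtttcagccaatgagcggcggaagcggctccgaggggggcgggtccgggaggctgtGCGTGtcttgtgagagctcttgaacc
ERO1A: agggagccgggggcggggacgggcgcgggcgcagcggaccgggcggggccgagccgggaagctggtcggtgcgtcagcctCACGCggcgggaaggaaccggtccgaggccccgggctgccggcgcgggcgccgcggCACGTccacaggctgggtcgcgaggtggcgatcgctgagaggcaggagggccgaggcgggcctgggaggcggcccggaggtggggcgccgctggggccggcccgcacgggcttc
HK2 and DDIT4 each held 3 matches, ERO1A 2, KDM3A 1, and EGLN3 and PGM1 0 in this window. In DDIT4 the ACGTG match began 125 bases before the gene start, and in KDM3A the GCGTG match began 26 bases before it. Of the 26 measured genes 23 matched a promoter in the RefSeq table, and 17 of these (73.9%) held at least 1 match. The share was 52.2% of the 10736 promoters of named genes and 43.2% of all 35116 promoters of that length. By set, a match was present in 5 of 9 glycolytic enzymes (55.6%) and in 12 of 14 other hypoxia-induced genes (85.7%). The median GC content was 69.6% in the 23 windows and 62.8% in those of the named genes. A match was found in 7 of 10 windows of genes that were higher without overlap and in 9 of 11 windows of genes whose groups overlapped. The canonical E-box CACGTG, which contains ACGTG on both strands, was present in 5 of the 23 (21.7%), against 7.93% of the promoters of named genes. It was found in 5 of the 11 windows of genes whose groups overlapped. Of the 10 windows of genes higher and the 2 of genes lower without overlap, 0 held it. These counts describe letters in a window and not sites of binding.

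Each deposited value is the log signal of a clone minus the average log signal of both control clones, read here as log2, and expression levels are therefore not kept. For the same reason the identity of the cell line could not be checked against the level of its markers. CDH26 itself stood at 2.87, 3.01 and 2.63 across CDH26 clones 1 to 3, against 0.01 and −0.01 in the control clones. Over all 14812 named genes limma gave 0 genes with a Benjamini-Hochberg adjusted p under 0.05, CDH26 included (adjusted p = 0.25), while 520 were higher and 593 lower at an unadjusted p under 0.05. Squamous epithelium markers had higher means too: all 5 measured of 7 listed were higher on average in CDH26 clones, 4 without overlap. Of all named genes 8.98% were higher without overlap, and 16.4% of those with a different value on each array. KRT5 separated narrowly, at 0.498 in CDH26 clone 3 against 0.494 in control clone 1, and KRT13 overlapped. The median of the 5 markers was 0.79, 1.07 and 0.76 across CDH26 clones 1 to 3, against 0.45 and −0.45 in control clones 1 and 2. None of the 7 measured columnar markers and 1 of 3 measured fibroblast markers lay apart between the groups. Of the squamous markers, the basal keratin KRT14 differed by 2.72 ± 0.43 (SE), stratifin (SFN) by 0.63 ± 0.11 and desmoglein 3 (DSG3) by 1.00 ± 0.36. Of the columnar markers, the differences were 0.13 ± 0.08 in TFF3, −0.22 ± 0.14 in KRT8 and −0.29 ± 0.20 in KRT18. The fibroblast marker that lay apart was LUM, at 1.59 ± 0.42, while THY1 differed by −0.16 ± 0.10 and DCN by 0.02 ± 0.03. The part of these cell type markers in the results below was not tested.

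**Figure D1:**
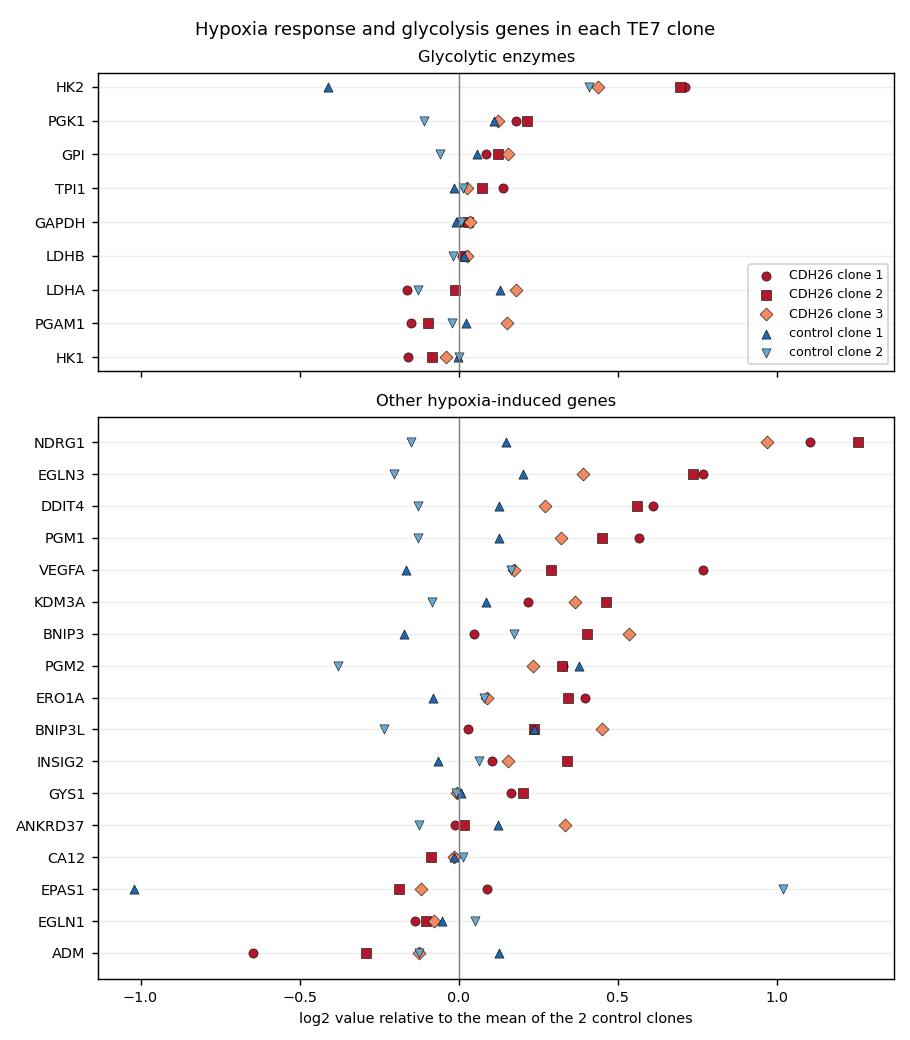
Log2 value of each measured gene in each clone, relative to the control mean; circles, squares and diamonds are CDH26 clones 1 to 3, triangles control clones 1 and 2. NDRG1 has the widest separation between the groups, and EPAS1 the widest gap between the control clones.

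The CDH26 mean was above the control mean in 13 of the 17 hypoxia-induced genes outside glycolysis and in 7 of the 9 glycolytic enzymes, beside 7097 of all 14812 named genes, and no gene of either set passed the adjusted threshold. NDRG1 had the largest difference of the 26 and hexokinase 2 (HK2) the largest of the enzymes. Whether the 17 genes and the 9 enzymes differ from each other was not tested. The median difference, CDH26 mean minus control mean, was 0.28 log2 units over the 17 hypoxia-induced genes and 0.02 over the 9 glycolytic enzymes, beside 0 over all named genes. The median of the 17 was 0.16, 0.32 and 0.23 across CDH26 clones 1 to 3, against 0.08 and −0.08 in control clones 1 and 2. That of the 9 enzymes was 0.01, 0.03 and 0.13 in the CDH26 clones and 0.02 and −0.02 in the control clones.

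The CDH26 clones were all above both control clones in 8 of the 17 hypoxia-induced genes and in 4 of the 9 glycolytic enzymes, and below both in 1 of each set. Over all named genes the shares were 8.98% above and 9.93% below. Many genes on the array have exactly equal values on several arrays, and those with a value shared between the groups cannot separate. Of the 26 genes 24 had no equal values. For the 6857 genes on the array that are free of equal values the shares were 16.4% and 18.6%. Leaving out CDH26 clone 3 gave 2 genes below in each set, and leaving out either control clone gave 3 among the 17. Fewer clones separate more easily, and shares over all named genes are not given for these fits. At an unadjusted p under 0.05 (limma, two-sided) 5 of the 26 were higher and 0 lower, where 3.51% of all named genes were higher and 4.0% lower; among genes without equal values these shares were 6.96% and 8.17%. The 5 became 2 without CDH26 clone 1, 1 without CDH26 clone 2 and 3 without control clone 2, and genes lower at that p became 2 without CDH26 clone 3 and 2 without control clone 1. None of the 26 passed the adjusted threshold with all clones (limma, adjusted p from 0.6265 to 1) or with any 1 left out (lowest adjusted p 0.0675, for PGM2 without control clone 1). When control clone 1 is left out, 0.581% of all named genes pass as higher and 0.675% as lower, and the 26 include 0 of them; the lone control clone is then assumed to vary like the CDH26 clones. With any 1 clone left out the differences of NDRG1, EGLN3, DDIT4, PGM1, ERO1A and KDM3A stayed within 1.5 times their value over all clones. Those of the other 20 genes moved further in at least 1 such fit, and 6 of them turned sign (EPAS1, PGM2, LDHA, LDHB, PGAM1 and ANKRD37).

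**Figure D2:**
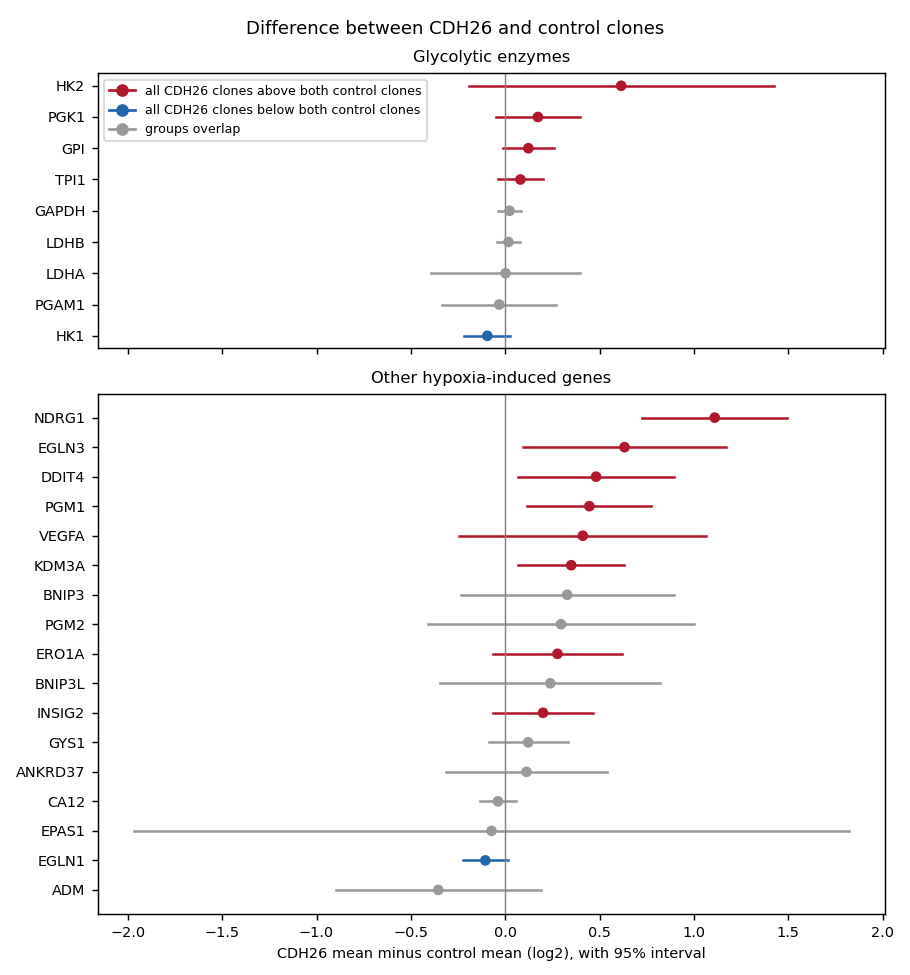
CDH26 mean minus control mean (log2) for each measured gene, with the 95% interval from limma; red, all CDH26 clones above both control clones; blue, all below; grey, overlap. The intervals of NDRG1, EGLN3, DDIT4, PGM1 and KDM3A lie above 0, none after adjustment over all genes.

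Glycolysis was measured at 4 of its upper and 5 of its lower and final enzymes. Hexokinases trap glucose in the cell as glucose 6-phosphate, and the paralogs HK2 and HK1 had CDH26 means on opposite sides of the control mean. HK2, the isoform known to be induced by hypoxia, was at 0.71, 0.69 and 0.44 across CDH26 clones 1 to 3, against −0.41 and 0.41 in control clones 1 and 2. The CDH26 clones lay above both controls, but CDH26 clone 3 did so only narrowly over control clone 2. The difference was 0.61 ± 0.29 (SE; 95% interval −0.19 to 1.42; limma, unadjusted p = 0.102, adjusted p = 0.6265), and it became 0.20 when control clone 1 was left out and 1.03 when control clone 2 was. HK1, the widely expressed isoform, was at −0.16, −0.08 and −0.04 in the CDH26 clones, against −0.0009 and 0.0009 in the control clones. Its difference of −0.10 ± 0.04 (SE) is small in absolute terms.

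GPI, which converts glucose 6-phosphate to fructose 6-phosphate, stood at 0.09, 0.12 and 0.16 in the CDH26 clones, against 0.06 and −0.06 in the control clones. Triose-phosphate isomerase (TPI1) stood at 0.14, 0.07 and 0.03 in the CDH26 clones, against −0.01 and 0.01 in the control clones. The first ATP-forming enzyme, phosphoglycerate kinase 1 (PGK1), was at 0.18, 0.21 and 0.13 in the CDH26 clones and at 0.11 and −0.11 in the control clones. In each of these genes the groups did not overlap, and the differences were small, at 0.12 in GPI, 0.08 in TPI1 and 0.17 in PGK1. The differences of GPI and PGK1 depended on which control clone was used, at 0.18 and 0.28 without control clone 1 and 0.06 for both without control clone 2.

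The remaining lower enzymes overlapped between the groups. GAPDH, often used as a reference transcript, was at 0.004, 0.03 and 0.04 in the CDH26 clones, against −0.01 and 0.01 in the control clones, and its 95% interval of −0.04 to 0.08 was among the narrowest of the 26. LDHB, the lactate dehydrogenase subunit of oxidative tissues, was at 0.01, 0.02 and 0.03 in the CDH26 clones, against 0.02 and −0.02 in the control clones, with a like interval, −0.04 to 0.08. LDHA, the subunit known as a HIF target, was at −0.16, −0.01 and 0.18 across CDH26 clones 1 to 3, against 0.13 and −0.13 in control clones 1 and 2. Its mean difference was 0.002 with an interval of −0.39 to 0.40, which includes the size of the PGK1 difference in either direction. Leaving out control clone 1 gave 0.13, and leaving out control clone 2 gave −0.13. Phosphoglycerate mutase 1 (PGAM1) was at −0.15, −0.10 and 0.15 in the CDH26 clones, against 0.02 and −0.02 in the control clones. Several of these enzymes have close copies in the genome, and the array's probes for them may not be fully specific, which was not tested; the near copies with names of their own, PGAM4 and PGK2, differed by −0.06 and 0.03.

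Of the genes of glycogen metabolism, 3 of 4 were measured. PGM1, a phosphoglucomutase that links glycogen to glycolysis by interconverting glucose 1-phosphate and glucose 6-phosphate, was at 0.57, 0.45 and 0.32 in the CDH26 clones, against 0.13 and −0.13 in the control clones. All CDH26 clones were above both controls, on average by 0.45 ± 0.12 (SE; limma, unadjusted p = 0.02, adjusted p = 0.6265). PGM2, which acts mainly on phosphopentoses, was at 0.33, 0.32 and 0.23 in the CDH26 clones, against 0.38 and −0.38 in control clones 1 and 2. The CDH26 clones thus lay between the controls; leaving out control clone 1 gave a difference of 0.67 and leaving out control clone 2 one of −0.08. Muscle-type glycogen synthase (GYS1) was at 0.16, 0.20 and −0.004 in the CDH26 clones, against 0.01 and −0.01 in the control clones, so that CDH26 clone 3 lay between the controls.

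Oxygen sensing was represented by EPAS1 and the prolyl hydroxylases EGLN1 and EGLN3. EGLN3, itself a well-known HIF target, was at 0.77, 0.74 and 0.39 across CDH26 clones 1 to 3, against 0.20 and −0.20 in control clones 1 and 2. The groups did not overlap, and the difference was 0.63 ± 0.19 (SE; limma, unadjusted p = 0.0312, adjusted p = 0.6265), a 1.55-fold higher value. EGLN1, the main oxygen sensor in most cells, was at −0.14, −0.10 and −0.08 in the CDH26 clones, against −0.05 and 0.05 in the control clones. It lay below both controls in every CDH26 clone, by 0.11 on average, a difference with an unadjusted p of 0.0703 (limma). Without control clone 1 the difference was −0.16 and without control clone 2 it was −0.05.

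EPAS1, which encodes HIF-2 alpha, showed the widest spread of the 26, and it lay between the control clones. It was at 0.09, −0.19 and −0.12 in the CDH26 clones, against −1.02 and 1.02 in control clones 1 and 2, so control clone 2 was 2.04 log2 units above control clone 1. The group difference was −0.07 ± 0.67 (SE), and it turned sign with the control clone used, at −1.09 without control clone 1 and 0.95 without control clone 2. 

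**Figure D3:**
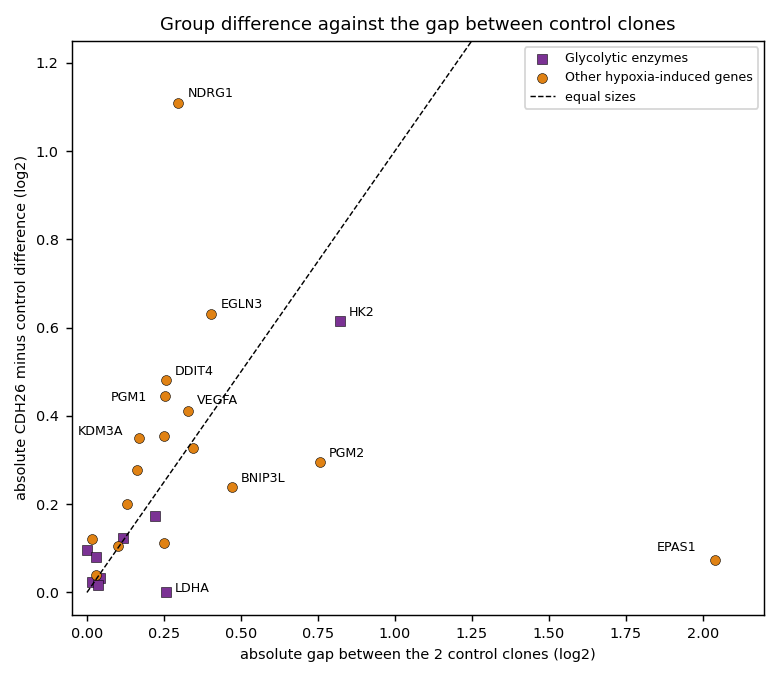
Absolute CDH26 minus control difference against the absolute gap between the 2 control clones (log2), 1 point per measured gene; the dashed line marks equal sizes. NDRG1 lies far above the line, EPAS1 far below it, and HK2 and PGM2 also have wide gaps between the controls.

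The gap between the control clones was larger than the group difference in 10 of the 26 genes, 5 of the 9 glycolytic enzymes and 5 of the 17 others, and over all named genes it was larger in 8011 of 14812. The median absolute gap between the controls was 0.25 log2 units in the 17 hypoxia-induced genes and 0.04 in the 9 enzymes, against 0.09 over all named genes and 0.16 over those without equal values. HK2, PGM2 and EPAS1 lay at least 0.5 apart between the control clones. Only VEGFA and ADM did so between CDH26 clones 1 and 3, and 0 genes between CDH26 clones 1 and 2 or between 2 and 3.

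NDRG1 led the genes of cell stress and mitophagy. This cytoplasmic protein is a differentiation-related stress gene and a widely used readout of hypoxia. It was at 1.11, 1.26 and 0.97 across CDH26 clones 1 to 3, against 0.15 and −0.15 in control clones 1 and 2. The lowest CDH26 clone was well clear of the higher control, and the difference was 1.11 ± 0.14 (SE; 95% interval 0.73 to 1.49), a 2.16-fold higher value. The unadjusted p was 0.00141 and the adjusted p 0.6265 (limma), and leaving out 1 clone at a time kept the difference between 0.96 and 1.26. DDIT4, known as REDD1, an inhibitor of the growth regulator mTORC1, was at 0.61, 0.56 and 0.27 in the CDH26 clones, against 0.13 and −0.13 in the control clones. All CDH26 clones were above both controls, and the difference was 0.48 ± 0.15 (SE; limma, unadjusted p = 0.0323, adjusted p = 0.6265).

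BNIP3 and BNIP3L, mitochondrial outer membrane proteins that recruit the mitophagy machinery, did not separate the groups. BNIP3 was at 0.05, 0.40 and 0.53 across CDH26 clones 1 to 3, against −0.17 and 0.17 in control clones 1 and 2, and CDH26 clone 1 lay between the controls. BNIP3L was at 0.03, 0.24 and 0.45 in the CDH26 clones, against 0.24 and −0.24 in the control clones. Without control clone 2 the difference of BNIP3L was 0.004, and without control clone 1 it was 0.47. ANKRD37, a small ankyrin-repeat protein known as a direct HIF target, was at −0.01, 0.02 and 0.33 in the CDH26 clones, against 0.12 and −0.12 in the control clones.

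Of the secreted signals, VEGFA, the main growth factor of blood vessels, was at 0.77, 0.29 and 0.17 across CDH26 clones 1 to 3, against −0.16 and 0.16 in control clones 1 and 2. The groups did not overlap, but the margin of CDH26 clone 3 over control clone 2 was very small, and the difference of 0.41 ± 0.23 (SE) had an interval from −0.24 to 1.07; leaving out control clone 1 gave 0.25, and leaving out control clone 2 gave 0.58. Adrenomedullin (ADM), a vasodilator peptide, was the gene furthest below the control mean, at −0.65, −0.29 and −0.13 in the CDH26 clones, against 0.13 and −0.13 in the control clones. CDH26 clone 3 and control clone 2 had the same ADM value, and the difference was −0.35 ± 0.19 (SE). It shrank to −0.21 without CDH26 clone 1 and to −0.23 without control clone 1. Carbonic anhydrase 12 (CA12), which handles acid at the cell surface, was at −0.01, −0.09 and −0.01 in the CDH26 clones, against −0.01 and 0.01 in the control clones. CDH26 clones 1 and 3 and control clone 1 had the same CA12 value.

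The 3 measured genes of chromatin, protein folding and sterol control all lay higher in every CDH26 clone than in either control clone. KDM3A, a histone demethylase induced by HIF, was at 0.22, 0.46 and 0.37 in the CDH26 clones, against 0.08 and −0.08 in the control clones, a difference of 0.35 ± 0.10 (SE; limma, unadjusted p = 0.0263, adjusted p = 0.6265). ERO1A, the oxidase that helps form disulfide bonds in the endoplasmic reticulum, was at 0.40, 0.34 and 0.09 in the CDH26 clones and at −0.08 and 0.08 in the control clones. INSIG2, which retains the sterol sensor SCAP in the endoplasmic reticulum, was at 0.10, 0.34 and 0.16 in the CDH26 clones, against −0.06 and 0.06 in the control clones. CDH26 clone 3 cleared the higher control by little in ERO1A and by more in KDM3A.

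**Figure D4:**
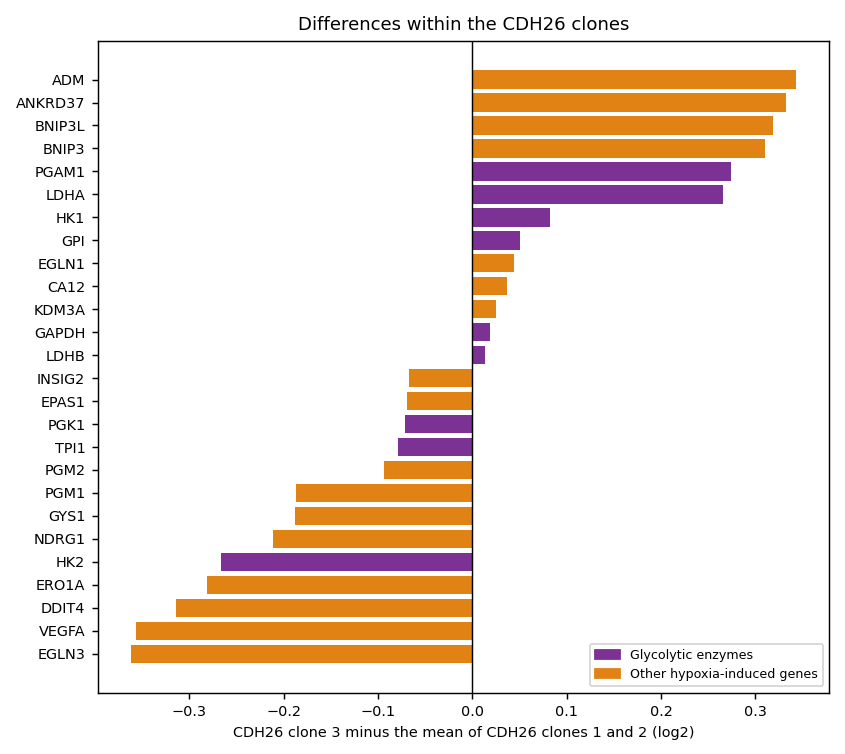
CDH26 clone 3 minus the mean of CDH26 clones 1 and 2 (log2) for each measured gene. ADM, ANKRD37, BNIP3L and BNIP3 are highest in clone 3, while EGLN3, VEGFA, DDIT4 and ERO1A are lowest in it.

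Within the CDH26 clones the 26 genes did not share 1 order of the clones. CDH26 clone 3 had the lowest value of the 3 clones in 11 genes and the highest in 12, tied values counted in each. Clone 1 was lowest in 13 and highest in 10, and clone 2 lowest in 2 and highest in 5. Among the 6857 named genes without equal values clone 3 was lowest in 2308 and highest in 2985. In those genes clone 1 was lowest in 2923 and highest in 2050, and clone 2 lowest in 1626 and highest in 1822. EGLN3 and VEGFA were lower in clone 3 than the mean of clones 1 and 2, by −0.36 each, DDIT4 by −0.31, ERO1A by −0.28 and HK2 by −0.27. ADM was higher in it by 0.34, ANKRD37 by 0.33, BNIP3L by 0.32 and BNIP3 by 0.31, and the enzymes PGAM1 and LDHA by 0.27 each. With 1 array a clone these differences have no replicate check. CDH26 itself was lowest in clone 3, at 2.63, and any link to these differences was not tested.

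Further genes of the pathway were taken from lists of genes known to belong to it, written with earlier results of these data known. Of 60 further hypoxia-induced genes 40 were measured, with a median difference of 0.01 log2 units; 11 lay above both controls in every CDH26 clone and 2 below, and 4 were higher and 2 lower at an unadjusted p under 0.05. Over all named genes these shares were 8.98% above, 9.93% below, 3.51% higher and 4.0% lower, and 16.4%, 18.6%, 6.96% and 8.17% among genes without equal values. CCNG2, the cyclin G2 gene, was at 0.58, 0.58 and 0.54 across CDH26 clones 1 to 3, against 0.08 and −0.08 in the control clones, a difference of 0.56 ± 0.05 (SE; limma, unadjusted p = 0.000582, adjusted p = 0.616). ANKZF1, a factor of ribosome quality control, differed by 0.61 ± 0.13 and SIAH2, a ubiquitin ligase that acts on EGLN proteins, by −0.25 ± 0.06. In 25 of the 40 the mean was higher in CDH26 clones and in 15 lower. The extremes of the list, named after their values were seen, were the collagen cross-linking enzyme LOX, at 1.61 ± 0.43, and the endothelin precursor EDN1, at −0.94 ± 0.60. LOX was at 1.70, 2.22 and 0.90 in the CDH26 clones, against −0.03 and 0.03 in the control clones. EDN1 was at −0.92, −0.97 and −0.92 in the CDH26 clones, against −0.92 and 0.92 in control clones 1 and 2, so that only control clone 2 stood apart.

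Among other regulators of HIF, 10 of 21 listed symbols were measured, with 1 above and 2 below both controls in all CDH26 clones. The shares over all named genes were 8.98% above and 9.93% below, and 16.4% and 18.6% among genes without equal values. ARNT, the shared partner of the HIF alpha subunits, was at 0.69, 0.64 and 0.52 in the CDH26 clones, against 0.37 and −0.37 in control clones 1 and 2. Its difference of 0.62 ± 0.25 (SE) had an unadjusted p of 0.0683. The paralogous coactivators CREBBP and EP300, which bind the HIF activation domain, lay below both controls in every CDH26 clone. CREBBP differed by −0.31 ± 0.06 (unadjusted p = 0.0078, adjusted p = 0.6265 in limma) and EP300 by −0.19 ± 0.08.

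Of 38 further genes around glycolysis 17 were measured, 3 of them above and 3 below both controls in all CDH26 clones, with a median of −0.03. Here too the shares over all named genes were 8.98% above and 9.93% below, and 16.4% and 18.6% among genes without equal values. MINPP1, a phosphatase of inositol phosphates and of bisphosphoglycerate, differed by −0.37 ± 0.07 (SE; limma, unadjusted p = 0.00764, adjusted p = 0.6265). GPD2, the mitochondrial enzyme of the glycerol phosphate shuttle, was at 0.66, 0.80 and 0.31 in the CDH26 clones, against −0.004 and 0.004 in the control clones. MPC2, a subunit of the mitochondrial pyruvate carrier, differed by 0.39 ± 0.17, and its partner MPC1 by −0.03 ± 0.02. MPC2 was at 0.45, 0.44 and 0.28 in the CDH26 clones, against 0.24 and −0.24 in the control clones. TIGAR, with the same unadjusted p as MPC2 (limma, 0.0879), differed by −0.49 ± 0.21 and lay below both controls in every CDH26 clone.

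**Figure D5:**
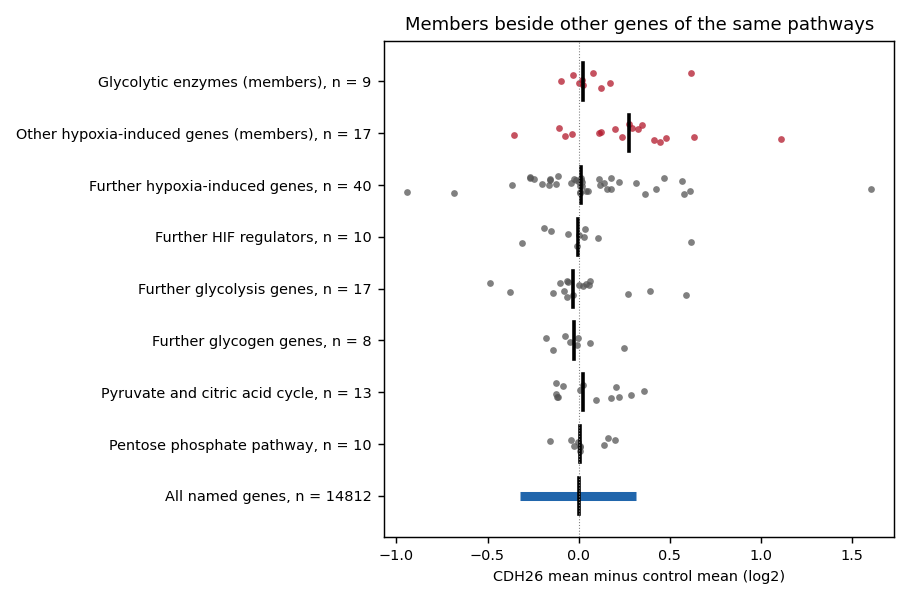
CDH26 mean minus control mean (log2) for each measured gene of each list, with the list's median as a black line; red points are the 26 genes described here, and the blue bar spans the 5th to 95th percentile of all named genes, from −0.32 to 0.31. The 17 hypoxia-induced genes have a median of 0.28, while the medians of the further lists lie between −0.03 and 0.02.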

How the data were processed

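Total RNA from 5 TE7 clones was labelled with biotin and hybridised to Gene 2.0 ST arrays, per the labels' protocols. The submitters' processing notes name Affymetrix Expression Console. The sources used here give neither its version nor the summarisation of probes nor a genome build. The authors' deposited values are log values, taken as log2; natural logarithms were an alternative. In every row the 2 control values were equal and opposite (largest absolute sum 1e-06), so no level is kept and no filter on dim genes was possible. The base of the log and the step that centred the values are not recorded.

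The array's annotation named 15835 of 44607 probe sets, each with 1 gene and each matching the current RefSeq symbol; 28772 were unnamed. Probe sets of 1 gene were averaged (651 genes with several, none among the 26 described). Groups were taken from the labels. CDH26 and control clones were compared over all 14812 named genes by lmFit and eBayes of limma 3.58.1 (R 4.3.3), with group as the only term, with Benjamini-Hochberg adjustment and a threshold of 0.05; the step was tested on simulated data. Exact tests of 3 against 2 clones cannot reach 0.05 (smallest p 0.1), so none was used. No overlap means that all CDH26 values lay beyond both control values by over 1e-05. Values in every clone are given for CDH26 and the measured genes. From each further list the 3 genes with the smallest unadjusted p were named. MPC1, TIGAR, LOX, EDN1, PGAM4 and PGK2 were added after their values were seen. The genes and lists were chosen with earlier results of these data known. Promoters, from RefSeq (GRCh38.p14), were shown for up to 6 genes with the largest difference without overlap among those with a promoter entry, leaving out chromosome 8. Alternatives were array centring, variance model, a replicate block, weighted arrays, leaving out each clone, other probe set rules, natural logarithms, genes without ties and a looser threshold; centring on the named genes was added after seeing the data. Figures used matplotlib 3.10.9.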

Additional observations from a re-analysis of the deposited data

How the results depend on the processing

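With each clone left out in turn, the number of genes higher without overlap was 4 to 5 among the glycolytic enzymes and 8 to 12 among the other hypoxia-induced genes, and the number lower was 1 to 2 and 1 to 3. Shares over all named genes are not given for these fits, so the counts cannot be set beside the shares with all clones. At an unadjusted p under 0.05 (limma) 1 to 6 of the 26 were higher and 0 to 2 lower. In the further pathway lists, 98 genes, 20 were higher and 13 lower without overlap with all clones, and 21 to 38 and 13 to 29 with 1 left out, where fewer clones are there to overlap. The median difference ran from 0.02 to 0.07 for the enzymes and from 0.22 to 0.26 for the other genes. Natural logarithms would raise the median of these other genes to 0.40 by the change of scale. Among the 6857 genes without ties CDH26, at 2.84, passed the adjusted threshold (limma, adjusted p = 0.0106), in a fit whose variance model was made from those genes alone; the cause was not tested. None of the 26 passed the adjusted threshold under any alternative run, each changing 1 choice. Several of these runs could not change that result. Both centrings and the probe set rules left the values of the 26 genes as they were, and natural logarithms only rescaled them. The labels do not say that clone numbers pair samples, and same-numbered clones did not deviate together (correlation over genes −0.20 and −0.21). These correlations cannot decide on pairing, since the deviations of the 2 control clones mirror each other. With the clone number as a replicate block, which leaves CDH26 clone 3 without a partner, 6 genes were higher at an unadjusted p under 0.05 and 0 passed the adjustment, and NDRG1 differed by 1.18 (limma, adjusted p = 0.572). A repeat of normalization or a filter on brightness was not run, since the values keep no level. Precision is limited by having 5 arrays.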

Other observations

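Of 31 listed genes of pyruvate dehydrogenase and the citric acid cycle 13 were measured, of which 4 were higher and 4 lower without overlap, with a median difference of 0.02 log2 units. Over all named genes 8.98% lay above and 9.93% below without overlap, and 16.4% and 18.6% of those without equal values; no test of direction was run on these lists. IDH3A, a subunit of the NAD-dependent isocitrate dehydrogenase, was at −0.12, −0.11 and −0.12 across CDH26 clones 1 to 3, against −0.04 and 0.04 in the control clones, a difference of −0.12 ± 0.03 (SE; limma, unadjusted p = 0.0188, adjusted p = 0.6265). OGDH, of the 2-oxoglutarate dehydrogenase complex, differed by 0.22 ± 0.08 and PDPR, which regulates the pyruvate dehydrogenase phosphatase, by 0.36 ± 0.14. In the pentose phosphate pathway 10 of 11 listed genes were measured and 0 lay apart between the groups. The smallest unadjusted p there were those of TKT, TALDO1 and H6PD, with differences of 0.14 ± 0.08, 0.16 ± 0.17 and 0.20 ± 0.25. Of 22 further glycogen genes 8 were measured, 1 above both controls (PGM2L1, 0.25 ± 0.10) and 2 below (GYG1, −0.14 ± 0.06, and PGM5, −0.05 ± 0.02).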
